A study of Mus musculus with 2 samples.

Results

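The AP-1 transcription factors Fos, Fosb, Fosl1, Fosl2, Jun, Junb and Jund were described in the nucleoplasmic RNA of stimulated mouse macrophages. These 7 genes are all of the Fos and Jun genes and were chosen by name, not by any measured value. They come from 55536 annotated genes, of which 22028 are protein-coding, and earlier results of these data were known at the choice. The 2 libraries, biological replicates 2 and 1, hold ribosome-depleted total RNA of bone marrow-derived macrophages, the phagocytes grown from marrow precursors in culture, from mice of the strain C57BL/6J. All cells had received Lipid A, the membrane anchor of bacterial lipopolysaccharide that is sensed by Toll-like receptor 4, at 100 ng/ml for 30 min, and the labels name the fraction both nucleoplasmic and nuclear. Sex and age were not collected, both libraries point to the same donor entry, and library construction began from 500 ng RNA for replicate 2 and from 1 µg for replicate 1. No unstimulated library was analysed here, so the levels below belong to the stimulated state and show no response to Lipid A. The comparison of replicate 2 with replicate 1 compares these libraries, not conditions, and carries no p-value.

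AP-1 is a dimer held together by leucine zippers. Fos proteins pair only with Jun proteins or other zipper partners, whereas Jun proteins can also pair with each other, and an adjoining basic region of each partner grips the DNA. In macrophages several of these genes are immediate early genes: their transcription starts within minutes of Toll-like receptor signalling through mitogen-activated protein (MAP) kinases, needs no new protein, and yields short-lived mRNAs. Fos and FosB carry a strong transactivation domain, the products of Fosl1 (Fra-1) and Fosl2 (Fra-2) lack it, and JunB and JunD are weaker activators than c-Jun at many sites.

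The structure of the genes follows this division. In the GENCODE annotation of the mouse build mm10, the main transcript of each of the 4 Fos genes had 4 exons, while those of Jun, Junb and Jund had 1 exon. Exon 3 of every Fos gene was 108 bases long and wholly coding. It encodes the basic region and the start of the zipper, and is printed below because it is the stretch that makes these genes a family. Capitals mark the 62 positions at which all 4 genes carry the same base.
Fos exon 3: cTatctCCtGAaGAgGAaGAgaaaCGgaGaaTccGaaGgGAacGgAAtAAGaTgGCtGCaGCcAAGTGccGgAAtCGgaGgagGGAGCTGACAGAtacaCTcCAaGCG
Fosb exon 3: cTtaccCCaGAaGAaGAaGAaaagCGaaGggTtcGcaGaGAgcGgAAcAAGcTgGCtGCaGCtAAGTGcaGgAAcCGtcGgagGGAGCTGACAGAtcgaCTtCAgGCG
Fosl1 exon 3: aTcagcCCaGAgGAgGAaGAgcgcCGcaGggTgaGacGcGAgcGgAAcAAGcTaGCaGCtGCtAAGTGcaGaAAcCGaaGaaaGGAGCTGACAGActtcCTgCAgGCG
Fosl2 exon 3: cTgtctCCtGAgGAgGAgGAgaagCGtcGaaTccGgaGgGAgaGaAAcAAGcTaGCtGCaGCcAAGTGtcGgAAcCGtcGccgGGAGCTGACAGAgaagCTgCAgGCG
These exons lie at chr12:85475592-85475699 (Fos, plus strand), chr7:19306559-19306666 (Fosb, minus strand), chr19:5454413-5454520 (Fosl1, plus strand) and chr5:32150421-32150528 (Fosl2, plus strand) of mm10. Pairwise identity was highest between Fos and Fosl2, at 77.8%, and lowest for Fosl1 against Fos and against Fosl2, at 66.7% each. Although the exons are alike, no word of 31 bases was shared between the annotated transcripts of any pair of the 7 genes, so exact matches of that length assign a read to its family member.

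**Figure D1:**
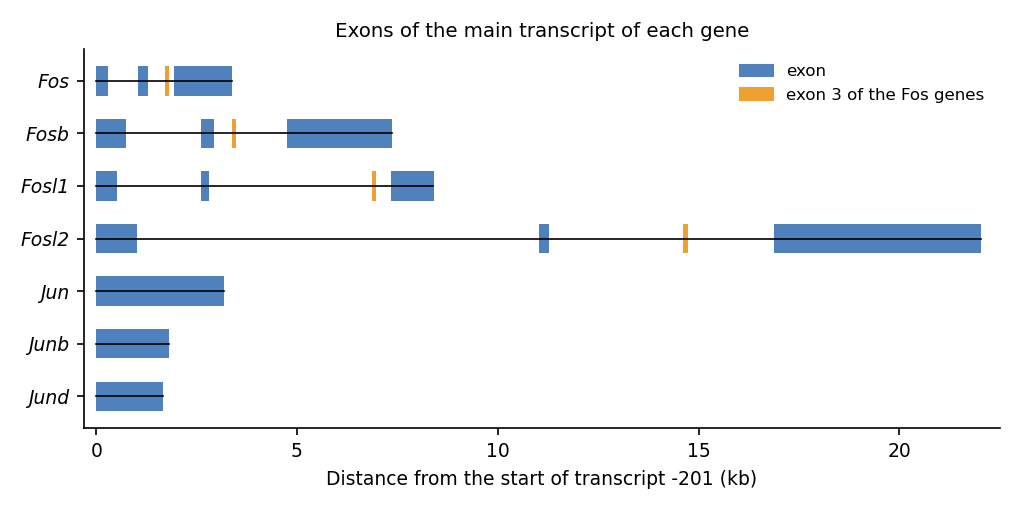
Exons of the main transcript of the 7 genes, drawn to scale from the transcript start (horizontal axis, kb). Orange marks exon 3 of the Fos genes, 108 bases in all 4, and Jun, Junb and Jund are drawn as 1 exon each.

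Promoter windows of 300 bases (250 before and 50 from the start site on) were found for 6 of the 7 genes in RefSeq (GRCm38.p6), and Fosl1 had no entry. The 4 windows printed here belong to the genes with the highest mean levels, and capitals mark TGACG, the core of the cyclic AMP response element, TGACATCA, the variant AP-1 site known from the Jun promoter, and TATAAA, the TATA box.
Fos promoter: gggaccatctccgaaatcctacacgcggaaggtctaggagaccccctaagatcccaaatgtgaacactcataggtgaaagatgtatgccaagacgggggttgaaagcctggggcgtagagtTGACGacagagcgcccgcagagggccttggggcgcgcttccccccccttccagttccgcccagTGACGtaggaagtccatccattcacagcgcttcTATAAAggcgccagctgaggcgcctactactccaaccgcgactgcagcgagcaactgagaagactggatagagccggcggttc
Fosb promoter: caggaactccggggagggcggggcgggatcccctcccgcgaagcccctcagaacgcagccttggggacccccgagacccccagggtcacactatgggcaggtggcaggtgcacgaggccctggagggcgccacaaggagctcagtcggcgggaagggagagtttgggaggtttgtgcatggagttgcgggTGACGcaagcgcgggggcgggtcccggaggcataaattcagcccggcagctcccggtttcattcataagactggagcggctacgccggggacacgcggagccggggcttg
Jun promoter: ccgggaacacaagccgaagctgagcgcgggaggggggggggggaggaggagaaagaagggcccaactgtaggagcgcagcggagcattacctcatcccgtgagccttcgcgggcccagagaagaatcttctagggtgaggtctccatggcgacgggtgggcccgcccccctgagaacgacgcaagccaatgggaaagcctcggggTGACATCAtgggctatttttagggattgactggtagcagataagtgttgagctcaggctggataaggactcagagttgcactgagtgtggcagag
Junb promoter: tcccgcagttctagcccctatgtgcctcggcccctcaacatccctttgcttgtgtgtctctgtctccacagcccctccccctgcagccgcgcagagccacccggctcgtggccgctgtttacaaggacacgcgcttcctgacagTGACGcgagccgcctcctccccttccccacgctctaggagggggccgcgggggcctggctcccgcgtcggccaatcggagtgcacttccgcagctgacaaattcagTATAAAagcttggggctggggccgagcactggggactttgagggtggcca
The windows are chr12:85473640-85473939, plus strand, chr7:19309996-19310295, minus strand, chr4:95052173-95052472, minus strand and chr8:84978699-84978998, minus strand. Searched on both strands, TGACG was present in the windows of Fos (starting 129 and 66 bases before the RefSeq start), Fosb (60 bases before) and Junb (106 bases before), and 20.8% of 32851 mouse promoter windows hold it. TGACATCA began 45 bases before the start of Jun, and 3.62% of windows hold it. TATAAA began 33 bases before the start of Fos and at position 1 of the RefSeq start of Junb, where GENCODE places the start 30 bases further downstream, and 13.6% of windows hold it. GGGCGG, the core of the GC box bound by Sp1, was found in the windows of Fos, Fosb, Fosl2 and Jun, against 35.7% of all windows. The consensus AP-1 site TGANTCA (7.81% of windows), the full element TGACGTCA (1.79%) and the CArG box of serum response factor (1.63%) had no match in the 6 windows. Sequence more than 250 bases before the start was not searched, so sites further upstream, CArG boxes included, would be missed. TGACG is contained in TGACGTCA, and TGACATCA and TATAAA were added to the search after the sequences had been seen. The RefSeq start of Fosl2 lies 671 bases downstream of the GENCODE start and that of Jund lies 1210 bases upstream of it, so these windows do not cover the GENCODE starts of the 2 genes.

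Of the 7 genes, 6 were detected, that is, had at least 1 TPM in both libraries, against 20.7% of all annotated genes and 42.4% of protein-coding genes. TPM is a transcript abundance scaled to transcript length and library, so it can be compared between genes. In a bulk fraction, fewer cells that transcribe a gene and less RNA of it per cell cannot be told apart. Among the Fos genes, Fos (chr12:85473890-85477273, plus strand), the founding member and textbook immediate early gene, had 262.9 TPM in replicate 2 and 128.1 TPM in replicate 1. Fosb (chr7:19302696-19310051, minus strand), which encodes the close relative FosB and its truncated form ΔFosB, had 118.3 TPM in replicate 2 and 30.7 TPM in replicate 1. Fosl2 (chr5:32135801-32157842, plus strand), the gene of Fra-2, had 67.5 TPM in replicate 2 and 43.5 TPM in replicate 1. All 3 were higher in replicate 2, with the largest ratio for Fosb and the largest difference in TPM for Fos.

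Fosl1 (chr19:5447547-5455946, plus strand), the gene of Fra-1, had 0.06 TPM in replicate 2 and 0 TPM in replicate 1. That is 2 expected counts in replicate 2, with an exact Poisson 95% interval of 0.242 to 7.22, and 0 in replicate 1. There 3 counts, taken here as the upper limit for a count of 0, would be 1.89e-05% of the library. The 3′ part of the gene lies opposite Ccdc85b on the other strand, which had 15 and 11 expected counts in replicates 2 and 1, and 202 and 219.7 estimated counts in the other deposited transcript tables. Fosl1 itself had 2 and 0 estimated counts in those tables.

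Among the Jun genes, Junb (chr8:84974484-84978718, minus strand), which encodes a Jun protein that often restrains c-Jun, had 308.2 TPM in replicate 2 and 308.5 TPM in replicate 1. Jun (chr4:95049034-95052222, minus strand), the gene of c-Jun, had 142.1 TPM in replicate 2 and 129.7 TPM in replicate 1. Jund (chr8:70698949-70700616, plus strand), the member known for steady expression in resting cells, had 22.2 TPM in replicate 2 and 16.5 TPM in replicate 1. The Jun genes therefore lay closer between the libraries on this scale than the Fos genes did.

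Ordered by mean level ± SD (n = 2), the family ran Junb at 308 ± 0.177 TPM, Fos at 196 ± 95.3 TPM, Jun at 136 ± 8.75 TPM, Fosb at 74.5 ± 62.0 TPM, Fosl2 at 55.5 ± 17.0 TPM, Jund at 19.3 ± 4.04 TPM and Fosl1 at 0.03 ± 0.042 TPM. Fos overlapped Jun, and Fosb overlapped Fosl2, between the libraries. The other neighbours in the order did not overlap. The orders within the libraries differed accordingly: Fos stood above Jun and Fosb above Fosl2 in replicate 2, and below them in replicate 1, where Fos and Jun were 128.1 and 129.7 TPM. Among 22028 protein-coding genes, Junb ranked 90, Fos 176, Jun 275, Fosb 556, Fosl2 778 and Jund 2582 by mean TPM. The median of the 9339 detected protein-coding genes was 7.48 TPM in replicate 2 and 9.49 TPM in replicate 1, so even Jund lay above it in each library. The other deposited transcript tables gave lower TPM for the family, as for most genes: Junb had 142 TPM in replicate 2 and 134 TPM in replicate 1, Fos 137 and 65.2 TPM, Jun 65.1 and 51.9 TPM, Fosb 53.6 and 12.5 TPM, Fosl2 36.4 and 20.9 TPM, and Jund 13.98 and 9.25 TPM. The order of the means was the same in both sets of tables, but in the other tables Fos stood above Jun in replicate 1 too. TPM rescaled over protein-coding genes alone was higher, with a mean of 1091 TPM for Junb and 707 TPM for Fos.

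**Figure D2:**
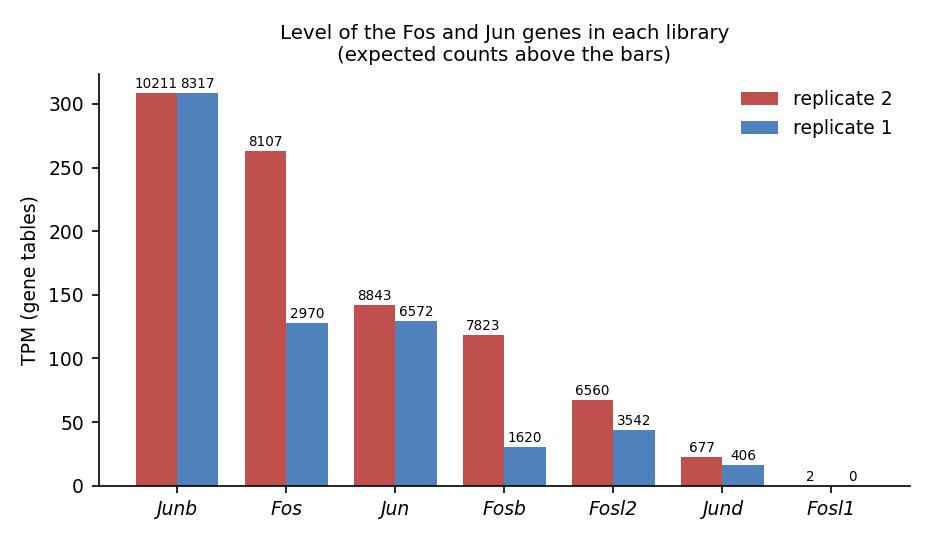
Level of each gene in TPM (vertical axis) in replicate 2 (red, left) and replicate 1 (blue, right), ordered by mean, with the expected counts above the bars. Junb stands at 308.2 and 308.5 TPM, while Fos and Fosb are higher in replicate 2 and Fosl1 is at 0.06 and 0 TPM.

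Summed over the family, the 7 genes had 921 TPM in replicate 2 and 657 TPM in replicate 1. The Jun genes contributed 472.5 TPM in replicate 2 and 455 TPM in replicate 1. The Fos genes contributed 449 TPM in replicate 2 and 202 TPM in replicate 1. The sum of the Jun genes was thus 1.05 times that of the Fos genes in replicate 2 and 2.25 times in replicate 1. For replicate 2 this direction turned with the quantity summed: the ratio was 0.877 for expected counts, 0.975 for TPM of the other transcript tables and 0.859 for their estimated counts. For replicate 1 it was 1.88, 1.98 and 1.82 for the same quantities, above 1 in each. The Fos genes made up 48.7% of the family in replicate 2 and 30.8% in replicate 1, and the Junb share was 33.5% in replicate 2 and 47.0% in replicate 1. These are shares of nuclear RNA and say nothing of protein or of the dimers formed.

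Expected counts, estimates of the reads that belong to each gene, showed how well each value was measured. Fos had 8107 in replicate 2 and 2970 in replicate 1, Fosb 7823 and 1620, Fosl2 6560 and 3542, Jun 8843 and 6572, Junb 10211 and 8317, and Jund 677 and 406, each in the same order. Annotated genes summed to 14874879 expected counts in replicate 2 and 15846212 in replicate 1. With library sizes scaled by the trimmed mean of M-values (TMM), log2 ratios of replicate 2 over replicate 1 were 1.51 for Fos (95% exact binomial interval 1.45 to 1.58), 2.34 for Fosb (2.26 to 2.42) and 0.95 for Fosl2 (0.90 to 1.01). They were 0.49 for Jun (0.45 to 0.54), 0.36 for Junb (0.32 to 0.40) and 0.80 for Jund (0.62 to 0.98). All 6 ratios were above 0, and these intervals cover counting error only.

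A gene was counted as beyond 2-fold where its mean was at least 50 counts, its scaled ratio passed 2 and the deposited credibility bounds (level not stated), put on the same scale, did not overlap. Fos and Fosb met this, 2 of the 6 members with enough counts and both higher in replicate 2, against 8.37% of 10444 genes in either direction and 4.75% higher in replicate 2. By ratio, Fosb ranked 20 and Fos 98 among the 10444 genes. Fosl2 ranked 618 and Jund 946, whereas Jun and Junb, at 1980 and 2645, lay in a range where 37.5% and 52.0% of genes had a ratio at least as far from 0. The median ratio was 0.88 over the 6 members and -0.03 over all genes.

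How the libraries are scaled, or the use of TPM in place of counts, moves these ratios in a shared direction. The ratio of TPM, with a median of -0.44 over the same 10444 genes, gave 1.04 for Fos, 1.95 for Fosb, 0.63 for Fosl2, 0.43 for Jund and 0.13 for Jun, while Junb turned to -0.0012. The genes beyond 2-fold split into 496 higher and 378 lower in replicate 2 with TMM scaling, and into 160 higher and 1519 lower with the TPM ratio, and Fos and Fosb were among the higher in both. Relative to the median of its own scaling, Junb was at 0.40 with TMM and 0.43 with TPM, and Fosb at 2.37 and 2.38.

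The libraries also differed in measures that the family does not set. The mitochondrial share of counts was 6.14% for replicate 2, against 2.18% for replicate 1. Protein-coding genes that span under 10000 bases, as 6 of the 7 members do, had a median scaled ratio of 0.22 (n = 1748), and 11.5% of them were higher in replicate 2 beyond 2-fold. Those of at least 10000 bases had a median of -0.05 (n = 7254), and 3.20% of them were higher beyond 2-fold. Protein-coding genes with 1 exon in every transcript had a median of 0.46 (n = 111). Of the members in this class, Jun was at 0.49 and Jund at 0.80. The part of these measures, or of the starting amount of RNA, in the ratios of the members was not tested.

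**Figure D3:**
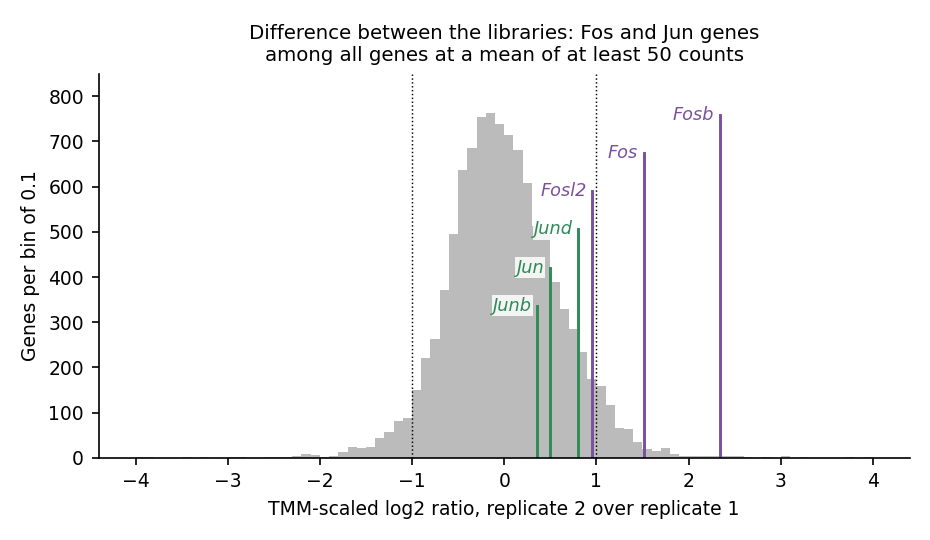
TMM-scaled log2 ratio of replicate 2 over replicate 1 (horizontal axis) for 10444 genes with a mean of at least 50 counts (grey, genes per bin on the vertical axis), with Fos genes in purple and Jun genes in green. Stem heights only separate the names and dotted lines mark 2-fold. Fos (1.51) and Fosb (2.34) lie beyond the upper line and all 6 marked genes are above 0.

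The Fos genes, unlike the Jun genes, can be read for splicing, because they have introns. A transcript percentage here is the share of a gene's TPM that the deposited tables gave to an annotated transcript. The spliced coding transcript Fos-201 took 68.2% of Fos in replicate 2 and 62.6% in replicate 1. The remaining 31.8% in replicate 2 and 37.4% in replicate 1 went to the short non-coding transcripts Fos-202, Fos-203 and Fos-204, which keep some intron bases. Within this sum the forms differed between the libraries. Fos-203 took 27.25% of Fos in replicate 2 and 16.82% in replicate 1. Fos-202 took 4.52% in replicate 2 and 20.2% in replicate 1. Fos-202 keeps the fewest intron bases among them, so its share says little about retained intron. For Fosl2, the main transcript took 53.9% in replicate 2 and 54.5% in replicate 1, and the retained-intron transcripts Fosl2-202 and Fosl2-203 took 46.1% and 45.5%. Non-coding transcripts (retained introns and processed transcripts) had a median share of 28.3% in replicate 2 and 30.6% in replicate 1 over 4880 protein-coding genes at 5 TPM or more that have such transcripts. Fos exceeded 55.2% of those genes in replicate 2 and 61.4% in replicate 1, and Fosl2 exceeded 75.0% and 73.3%, so neither stood at the edge of the range.

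The size of the intron-holding share rests on how reads were divided. As a share of expected counts it was 12.2% in replicate 2 and 13.2% in replicate 1 for Fos, and 26.7% and 27.7% for Fosl2. In the other deposited transcript tables it was 44.8% and 52.9% of TPM for Fos, and 54.9% and 55.1% for Fosl2. Fos-202 (631 bases) and Fos-203 (795 bases) are shorter than Fos-201 (2108 bases). TPM is scaled to transcript length, whereas the share of counts is not, so a shorter transcript takes a smaller share of counts than of TPM.

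Fosb had the most annotated forms with reads. The main form Fosb-201 took 38.4% of Fosb TPM in replicate 2 and 49.4% in replicate 1, and the retained-intron transcript Fosb-204 took 22.3% and 24.96%. Fosb-206 and Fosb-207 lack a segment of 140 bases in exon 4 (chr7:19305007-19305146, minus strand, mm10), the intron-like piece whose removal shifts the reading frame and yields ΔFosB, a protein without the transactivating C-terminus and known for its long life in neurons. Fosb-207 also lacks exon 3, which encodes the basic region, so the joint share of the 2 forms is not that of ΔFosB alone. The segment is printed in capitals, with 12 bases of Fosb-201 on either side in lower case.
Fosb segment: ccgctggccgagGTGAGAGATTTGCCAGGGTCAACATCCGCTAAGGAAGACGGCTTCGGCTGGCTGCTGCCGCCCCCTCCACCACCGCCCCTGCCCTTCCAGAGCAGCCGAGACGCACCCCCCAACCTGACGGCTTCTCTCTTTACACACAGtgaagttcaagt
The 2 forms without it took 23.6% of Fosb TPM in replicate 2 and 24.9% in replicate 1, and 15.5% and 14.8% of its expected counts. In the other transcript tables the 2 forms together took 17.8% in replicate 2 and 21.1% in replicate 1. Their joint share thus varied more between ways of counting than between libraries.

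Fosb-205, which lacks the first 117 bases of exon 2 (chr7:19307324-19307440), was the form whose share of Fosb differed most between the libraries. It has most of its bases in common with Fosb-201, so its values rest on how shared reads were divided. It had 1335 expected counts in replicate 2 and 12.8 in replicate 1, or 15.7% and 0.71% of Fosb TPM. The other tables gave it 991 estimated counts in replicate 2 and 0.00078 in replicate 1. Fosb-202 and Fosb-203, coding forms that skip exon 3, were at 0 in both libraries. The main form alone, without Fosb-205, also had more counts in replicate 2, at 3389 against 922 in replicate 1. So did Fosb-204 (1884 against 445), Fosb-206 (262 against 67.3) and Fosb-207 (953 against 173).

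**Figure D4:**
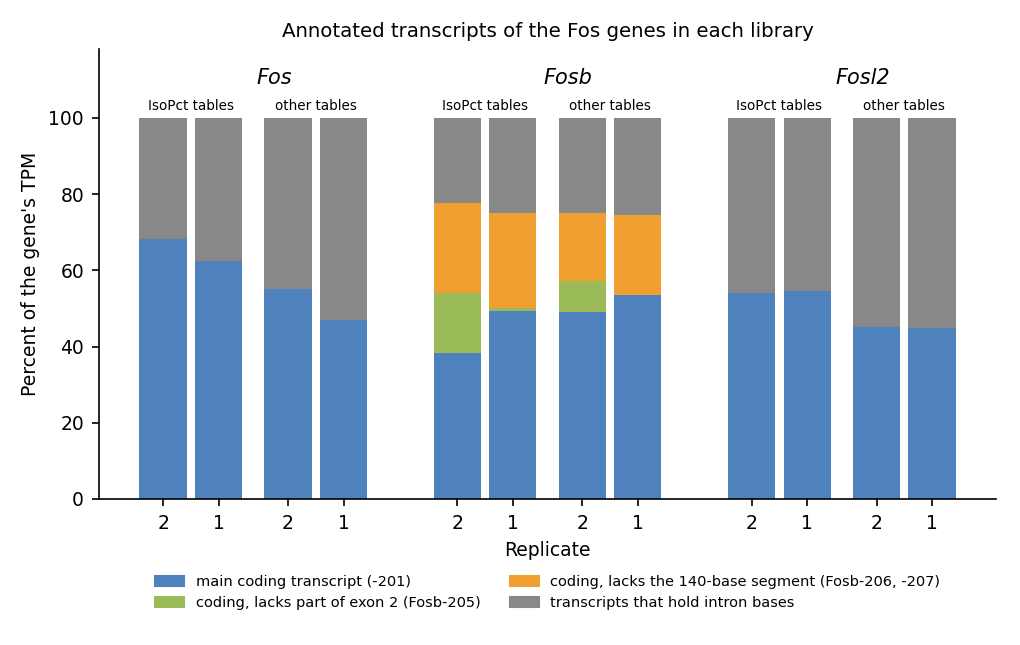
Share of the TPM of Fos, Fosb and Fosl2 (vertical axis, percent) by class of annotated transcript in replicates 2 and 1, in the tables that carry transcript percentages (left pair of each gene) and in the other transcript tables (right pair). Fosb-205 (green) takes 15.7% in replicate 2 and 0.71% in replicate 1, and the intron-holding classes (grey) of Fos and Fosl2 are larger in the other tables.

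Of the Jun genes, Jun and Jund have a lone annotated transcript, and Junb-201 took 98.8% of Junb in replicate 2 and 99.6% in replicate 1. Junb-202, a non-coding transcript outside Junb-201 that reaches the opposite-strand gene Prdx2, took the remaining 1.19% and 0.36%. In the other transcript tables Junb-202 took 5.50% in replicate 2 and 6.47% in replicate 1. Prdx2 had 234 expected counts in replicate 2 and 83 in replicate 1, and 383 and 111 in the other tables. Opposite-strand neighbours also cover Jun (the antisense gene Junos, 29.4 expected counts in replicate 2 and 33.4 in replicate 1, and 120 and 122 in the other tables) and Jund (the antisense gene Gm11175, 0 and 2.42). The sources used here do not state whether counting used strand. Words of 31 bases shared with the opposite gene made up 6.39% of those of Jun, 6.51% of Junb, 50.1% of Jund and 54.5% of Fosl1, so the values of Jund and Fosl1 are the ones that unstranded counting could touch most.

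Several mRNAs of this family are known for rapid decay through AU-rich elements in their 3′ untranslated regions, where the pentamer ATTTA is the core. The main transcripts held 4 copies in Fos (815 bases of 3′ untranslated region), 8 in Fosl2 (4653 bases), 4 in Jun (1233 bases) and 2 in Junb (485 bases), and 1 each in Fosb, Fosl1 and Jund. Per kilobase, Fos had 4.91 copies, Junb 4.12 and Jun 3.24, denser than 91.7%, 87.7% and 80.6% of the 3′ untranslated regions of 20343 genes, whose median was 1.22. Fosb, at 0.466 copies per kilobase, lay above only 37.4% of them. The longer element TTATTTATT occurred once in Fos and once in Fosl2, against 7.28% of genes. The windows of 30 bases with most copies are shown for these 2 genes, with ATTTA in capitals (chr12:85477092-85477121 and chr5:32156860-32156889, both plus strand, mm10).
Fos element: cgtttttattgtgttttcaATTTATTTAtt
Fosl2 element: aagaaattgacATTTAttttattATTTAtt
The match describes letters only, since RNA decay was not measured here.

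Other zipper proteins that pair with Fos or Jun were detected for 12 of 13 listed genes. Atf3, a stress-induced partner of Jun, had 171 TPM in replicate 2 and 276 TPM in replicate 1. Maf, a macrophage differentiation factor, had 78.4 TPM in replicate 2 and 52.9 TPM in replicate 1. Atf4, the effector of the integrated stress response, had 47.55 TPM in replicate 2 and 56.1 TPM in replicate 1. Atf3 thus stood with Fos and Jun in level but was lower in replicate 2, and 4 of 12 partners with enough counts had a scaled ratio above 0. With TMM scaling none passed 2-fold, against 8.37% of all genes, and the median was -0.20. By the TPM ratio 2 did, Maff and Mafg, both lower in replicate 2, and the median was -0.62. That ratio put 16.1% of all 10444 genes beyond 2-fold, most of them lower in replicate 2, and had a median of -0.44 over them.

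For the kinases that act on AP-1 and the factors that switch on Fos, calls beyond 2-fold differed between TMM scaling and the TPM ratio. The 2 measures did not differ by the same shift in every gene. Mrtfa had -0.48 with TMM scaling and -1.37 by the TPM ratio, against medians of -0.03 and -0.44 over all 10444 genes. With TMM scaling neither list had a call, against 8.37% of all genes. By the TPM ratio Map2k3 and Map3k7 of the first list, and Creb1 and Mrtfa of the second, were lower in replicate 2 beyond 2-fold. These are 2 of 15 and 2 of 11 genes with enough counts, against 16.1% of all genes by that ratio, most of them lower in replicate 2. Of 17 listed MAP kinase pathway genes, 15 were detected, with a median scaled ratio of -0.11. The highest were Map3k8, the kinase that links Toll-like receptors to ERK, at 32.7 TPM in replicate 2 and 53.7 TPM in replicate 1, and Mapk14, the kinase p38α, at 30.97 and 41.5 TPM. Map2k3, which activates p38, had 17.2 TPM in replicate 2 and 45.3 TPM in replicate 1. All 11 genes of the second list, which holds Mef2 genes and Creb1 besides serum response factor, were detected, with a median of -0.24. Its highest were Mef2a at 48.5 and 72.9 TPM, Mef2c at 44.7 and 75.0 TPM, and the actin-sensing cofactor Mrtfa at 33.1 and 85.3 TPM in replicates 2 and 1.

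Of 12 genes for AP-1 turnover and cofactors, 11 were detected, with a median ratio of -0.16. Trib1, a scaffold for the ubiquitin ligase COP1, was the only one beyond 2-fold with TMM scaling, at 16.6 TPM in replicate 2 and 46.1 TPM in replicate 1 and a scaled log2 ratio of -1.11. Cop1, the ligase subunit that marks c-Jun for degradation, had 32.9 TPM in replicate 2 and 72.2 TPM in replicate 1. Its scaled log2 ratio was -0.49, and by the TPM ratio, at -1.13, it was beyond 2-fold as well. Calls were thus 1 of 12 genes with TMM scaling and 2 of 12 by the TPM ratio, against 8.37% and 16.1% of all genes. The acetyltransferase gene Ep300 had 31.7 and 39.9 TPM.

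Of 16 genes known as AP-1 targets, 14 were detected, and the median scaled ratio was 0.07. With TMM scaling or by the TPM ratio 0 passed 2-fold, against 8.37% and 16.1% of all genes. Tnf, the early inflammatory cytokine, had 746.5 TPM in replicate 2 and 956 TPM in replicate 1, above every Fos and Jun gene. Spp1 (osteopontin) had 694 TPM in replicate 2 and 651 TPM in replicate 1. Il1b, the interleukin-1β gene, had 371 TPM in replicate 2 and 721 TPM in replicate 1. For Tnf the direction differed between the measures, with a log2 ratio of 0.02 with TMM and -0.36 by TPM. For Il1b the ratios were -0.51 and -0.96.

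The labelled cell type was checked against marker genes. All 10 macrophage markers were detected, with Lyz2 at 2295 TPM in replicate 2 and 1465 TPM in replicate 1, Csf1r at 539.9 and 599 TPM and Cd14 at 367 and 431 TPM. Lyz2 was the only macrophage marker beyond 2-fold with TMM scaling (log2 ratio 1.03), and none was by the TPM ratio. Of the T cell markers 1 of 6 was detected, Cd4 (34.9 TPM in replicate 2 and 23.9 TPM in replicate 1, log2 ratio 1.28), while Lck and Cd8a had at most 3 counts in either library and Cd3e, Cd3d and Trac were at 0 in both. The B cell markers had 1 of 5 detected, Ighm (97 counts in replicate 2 and 45 in replicate 1, log2 ratio 1.17), with Cd79a at 0. The other marker lists had 1 of 6 neutrophil genes detected (S100a9), 0 of 6 fibroblast genes and 1 of 6 erythroid genes (Alas2), with Ly6g, Lum, Hbb-bs and Hba-a1 at 0. Summed levels were 35.1 TPM in replicate 2 and 24.1 TPM in replicate 1 for the T cell list, nearly all of it Cd4, 3.72 TPM in replicate 2 and 1.91 TPM in replicate 1 for the B cell list, 2.92 and 1.64 TPM for the neutrophil list, 2.57 and 2.36 TPM for the erythroid list, and 0.17 and 0.40 TPM for the fibroblast list. The T cell sum was above the level of Jund, the lowest detected member, and the sums of the other 4 lists were below it.

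Protein-coding genes closest to the members over log2(TPM + 1) in the 2 libraries, by Euclidean distance, were Tmem132a (0.19) and Cd68 (0.40) for Fos and Rps24 (0.43) for Fosb. For Fosl2 they were Slc15a4 (0.10) and Glmp (0.11), for Jun Cyba (0.08) and Tmbim6 (0.15), for Junb Fcgr2b (0.15) and Ctsz (0.19), and for Jund Trim28 (0.05) and Mlf2 (0.05). With 2 libraries this measures little beyond equal level.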

How the data were processed

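The 2 biological replicate libraries of 1 group were analysed, with replicate numbers from the labels, and their spread may be technical. The authors deposited gene and transcript tables on mm10 with expected counts, TPM, transcript percentages (percent of a gene's TPM) and credibility bounds of TPM (a signal never below 0), per the file headers. They also deposited transcript tables with estimated counts and TPM. The sources used here name no aligner, quantifier or strand setting. Features outside annotated genes (0.213% and 1.19% of counts in replicates 2 and 1) were left out. Expected counts were rounded for TMM scaling with edgeR 4.0.16 in R 4.3.3, and DESeq2 1.42.0 size factors were an alternative. Across 14470 genes the biological coefficient of variation was 0.302. Intervals and the limit of 3 counts cover counting error only. Without a control group no test was run. A planned protein alignment was not made. The genes named were all 7 members, the 3 highest by mean TPM in each list, list genes beyond 2-fold other than those of marker lists, the 2 nearest genes of each member, and overlapping genes; a few genes within this rule are not reported here. Calls in the lists under other scalings were added after seeing the data. The members and lists were chosen with earlier results of these data known.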

Additional observations from a re-analysis of the deposited data

How the results depend on the processing

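No paired analysis was possible because there is 1 group. The number of detected Fos and Jun genes stayed at 6 at limits of 0.5 and 5 TPM, in the other transcript tables and in either library alone. The number beyond 2-fold was 2 with DESeq2 size factors, library size alone, the TPM ratio and no minimum count, and 3, with Fosl2 added at 1.10, in the other tables without bounds. The log2 ratio of Junb turned to -0.0012 as a ratio of TPM, and the cause was not tested. The mean share of intron-holding transcripts (34.6% for Fos, 23.6% for Fosb, 45.8% for Fosl2) was 48.9% for Fos and 55.0% for Fosl2 in the other tables, and 12.7%, 25.8% and 27.2% as a share of counts. The share of Fosb forms without the 140-base segment (24.3%) was 19.4% and 15.2% under these settings. The Fos genes' share of the family was 30.8% to 48.7% in single libraries and averaged 42.1% in the other tables and 44.0% of counts, where it was 50.6% and 53.3% in replicate 2. Leaving out a library gives no ratio. At this depth the observed counts of Fosl1, 2 and 0 in replicates 2 and 1, were under the limit of 3 counts. The interval for replicate 2 reached 7.22.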
